A study of Saccharomyces cerevisiae with 4 samples.

Results

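The gene expression of TAT12 relative to AT22 was measured with 1 of the 4 dye swaps of the study, that is 2 of its 8 arrays, and is described across all 6336 gene probes of the array, called genes here although 86 genes have a second probe. Both strains are laboratory-evolved lines of *Saccharomyces cerevisiae* whose ancestor is the haploid *MATα* strain S288C. AT22 was selected from S288C populations kept at low pH with acetic acid. TAT12 was selected under the same acid conditions, but from TTY23, an S288C descendant already evolved at elevated temperature, so the strains differ in ancestry, heat selection and every mutation gained in between, and these cannot be told apart here. Both are selected strains. The labels do not say whether both arrays share an RNA extract or whether RNA was pooled over cultures, and the arrays were treated as 1 replicate. Both were grown without stress at 30 °C and 250 rpm in defined medium with 2% glucose at pH 5.0, as the labels give it, and sampled in the middle of exponential growth.

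A yeast cell growing fast on glucose spends most of its transcription on ribosomes and glycolysis, takes up glucose through a family of hexose transporters matched to the sugar level, and keeps its stress genes low through protein kinase A. Acetic acid enters as the undissociated acid and releases protons in the cytosol, which the plasma membrane ATPase Pma1 and the vacuolar ATPase remove. Heat unfolds proteins and induces the chaperones through Hsf1, Msn2 and Msn4.

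On array 1, AT22 cDNA carried Alexa555 and TAT12 cDNA Alexa647, and on array 2 the dyes were exchanged. Each array held 13056 spots, 320 of them empty, with every gene printed in duplicate. Ratios are log2 of TAT12 over AT22, so a value of 1 is a 2-fold higher signal in TAT12. The median background-subtracted signal was 84.4 for AT22 and 99.99 for TAT12 on array 1, and 79.4 for AT22 and 95.4 for TAT12 on array 2. In both dyes of both arrays, 2662 genes (42.0%) were above background, meaning above the 95th percentile of the empty spots. The local background was higher in Alexa647 than in Alexa555 on both arrays (96.1 against 42.6, and 84.8 against 42.7), so both arrays had the same dye pattern. Genes defining the *MATα* type (*MF(ALPHA)1*, *MF(ALPHA)2*, *STE3* and *SAG1*) were not above background in every channel and lay between −0.11 and 0.13. Of 7 *MATa* genes, 4 were above 0 and 3 below, between −0.12 and 0.33, and 0 had a z-score past 2 in either direction. The highest ratio was that of the pheromone precursor *MFA1*, at 0.33 with a z-score of 1.05.

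With 1 dye swap there is no biological replicate and no p-value can be drawn from it. Genes were therefore called by an intensity-dependent z-score, the SDs by which a ratio departs from those of the 100 genes closest in intensity, with a threshold of 2. The call describes these arrays and is not a test between strains. By this rule 271 genes (4.28%) passed, 214 (3.38%) higher in TAT12 and 57 (0.9%) lower. The same rule applied to the difference between the arrays divided by 2, which holds the dye and not the strain, called 294 genes. Ratios were small. Their SD over all genes was 0.17, the extremes were −0.78 and 1.16, 5 genes were at least 2-fold higher in TAT12 and 0 at least 2-fold lower. At 1.5-fold the counts were 69 and 4.

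Most calls came from dim probes. Of the 214 genes higher in TAT12, 151 were not above background in all 4 channels, and of the 57 lower genes 45 were not. With the same sign on all 4 spots and a signal above background, 61 genes (0.963%) were higher and 9 (0.142%) lower. The smallest called ratio was 0.099, since the SD was 0.069 over the 1268 dimmest genes against 0.29 over the 1267 brightest. The plot of ratio against intensity shows both kinds of call.

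**Figure D1:**
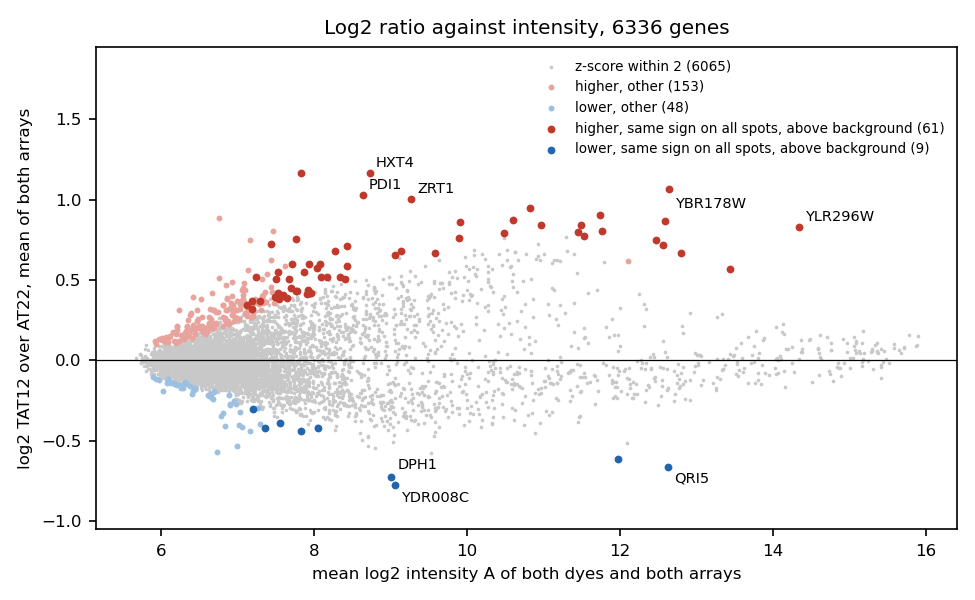
Log2 ratio of TAT12 over AT22 (mean of both arrays) against the mean log2 intensity of each of 6336 genes. Dark points are the 61 higher and 9 lower genes with the same sign on all spots and a signal above background, pale points the other genes past a z-score of 2, and grey points the rest. Most pale points lie at low intensity, and the higher genes outnumber the lower ones.

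The arrays agreed poorly as normalized. Once turned to the same direction, they correlated with r = −0.17 across genes, and 42.1% of genes had the same sign on both. The difference between the arrays correlated with r = 0.85 with the dye term of each gene, taken from the arrays of TAT12 with S288C and with TTY23. After that term was subtracted from each array, r was 0.39 and 56.8% of genes had the same sign. Over the 1267 brightest genes r was then 0.62, and over the 1268 dimmest −0.30. The subtraction leaves the mean of both arrays as it was. Genes are not independent replicates, and the duplicate spots of each array gave r = 0.91 and 0.86. Of the called genes, 195 of 214 higher and 41 of 57 lower had the same sign on both arrays. The calls were made on the mean of both arrays, which favours genes of the same sign, so these counts are no separate check.

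**Figure D2:**
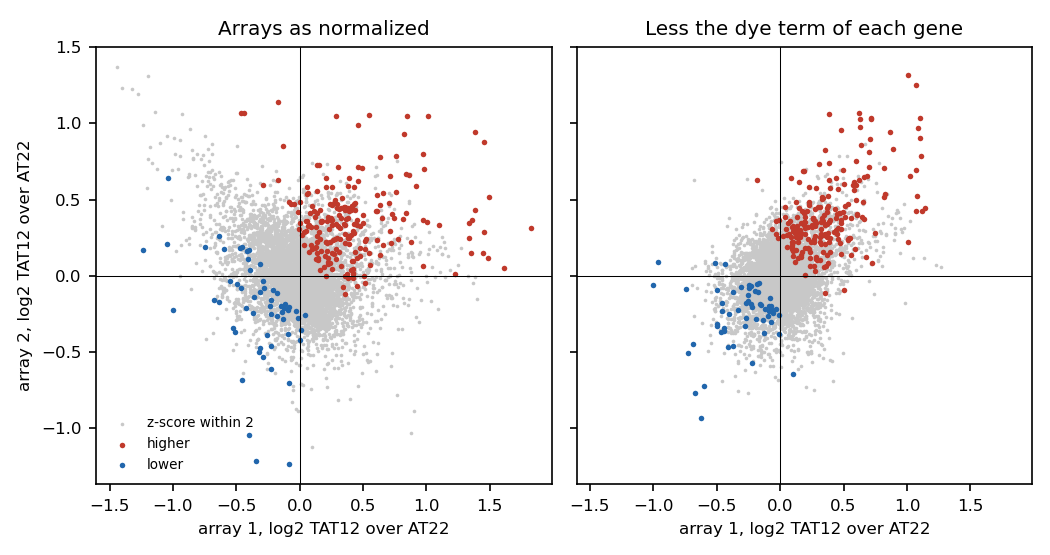
Log2 ratio of TAT12 over AT22 on array 1 (horizontal) and array 2 (vertical) for each gene, as normalized (left) and less the dye term of each gene (right). Red points are the 214 genes called higher in TAT12 and blue points the 57 called lower. On the left the grey cloud runs downward (r = −0.17), on the right upward (r = 0.39).

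The hexose transporters led the genes higher in TAT12. *HXT4*, a glucose transporter of high affinity, gave background-subtracted signals of 227 in AT22 and 799 in TAT12 on array 1, and 212 in AT22 and 545 in TAT12 on array 2. TAT12 was thus brighter in either dye, with log2 ratios of 1.39 and 0.94 and a mean of 1.16, or 2.24-fold. The probe of *HXT3*, a low-affinity transporter, was at 1.45 and 0.88 (mean 1.16), but it names *HXT3*, *HXT6* and *HXT7* together. A second *HXT3* probe with the same names was at 0.72. The probes of the high-affinity transporters *HXT7* (0.97 and 0.80, mean 0.89) and *HXT6* (0.55 and 1.06, mean 0.80) each name both genes and were not above background in every channel. *HXT15*, a transporter of the *HXT13*, *HXT15* and *HXT16* probe, was at 0.40.

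Of the 22 transporters and sensors in the list, these 5 (22.7%) passed in the higher direction, where 3.38% of all genes did, and 0 in the lower. On array 1 alone 5 passed and on array 2 alone 4. The median of the 22 was 0.083, against −0.010 over all genes. Of the others, *HXT1*, the low-affinity transporter of high glucose, was at 0.25 (z-score 1.91), *HXT2* at 0.087 and *HXT5* at 0.14. *MTH1* and *STD1*, corepressors that hold hexose transporter genes off without glucose, were at 0.21 and 0.36, and the glucose sensors *SNF3* and *RGT2* at −0.014 and −0.035, none past the threshold. The called probes are not 5 separate genes, because those listed as *HXT3*, *HXT6* and *HXT7* share names. Formed through S288C, that is TAT12 over S288C less AT22 over S288C, the ratio of *HXT4* was −0.29 and that of *HXT3* −0.41. The direction of array 2 in the AT22 and S288C swap is not settled. Its local background was 82.5 in Alexa555 and 48.8 in Alexa647, whereas array 1 of that swap had 48.9 and 96.2. Array 2 of the TAT12 and TTY23 swap was also higher in Alexa555 (59.4 against 55.3). With the array of the AT22 and S288C swap turned, *HXT4* was at 1.13 and *HXT3* at 0.97. Of the list, 0 passed through S288C with a median of −0.11, and 2 with the array turned, with a median of 0.084. The deposited z-scores used as an alternative hold 16 of the 22 and none of the 5 called probes.

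**Figure D3:**
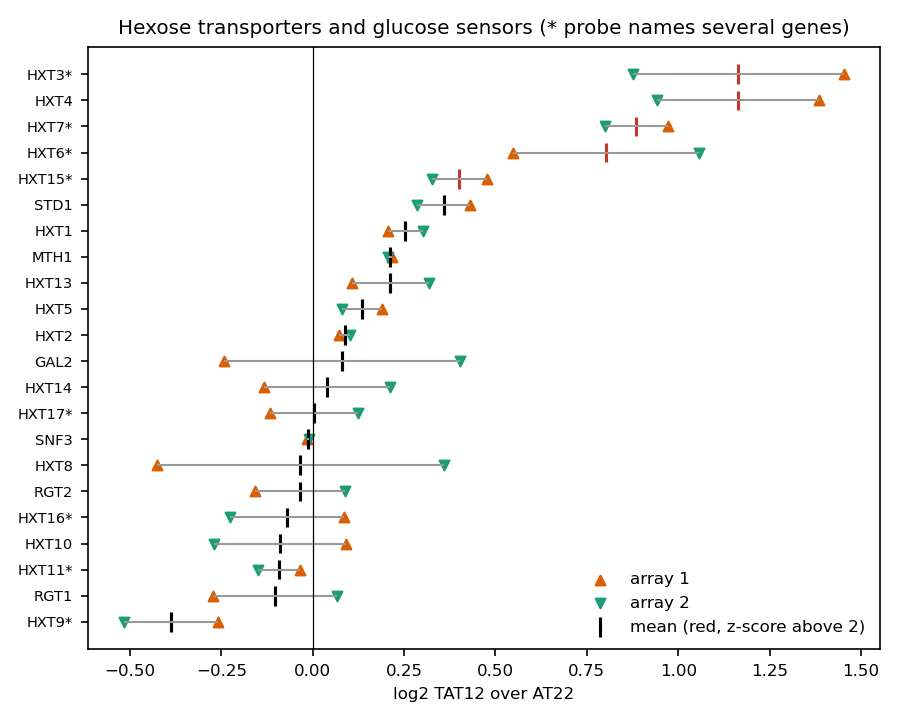
Log2 ratio of TAT12 over AT22 of the 22 hexose transporters and glucose sensors, on array 1 (orange), array 2 (green) and as their mean (bar, red where the z-score passed 2). The 5 called probes lie at 0.40 or above, and the rest between −0.39 and 0.36.

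The other named genes at the top belong to unlike functions. *PDI1*, the protein disulfide isomerase of the endoplasmic reticulum, was the gene on which both arrays agreed best among the leading ones. Its signals were 208 in AT22 and 573 in TAT12 on array 1, and 218 and 607 on array 2, which gave 1.01 and 1.05 and a mean of 1.03 (2.04-fold). *ZRT1*, the high-affinity zinc transporter of the plasma membrane, had ratios of 1.49 and 0.52 with a mean of 1.00. TAT12 was brighter in both dyes for each of these. Through S288C, *PDI1* was at −0.68 and *ZRT1* at −0.50, and with the array turned at 0.44 and 0.94.

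The remaining 9 of the 12 highest single-gene probes carry little annotation. *YBR178W* (1.82 and 0.31, mean 1.07), *YLR184W* (mean 0.91), *MTC7* (0.87), *YCR025C* (0.84), *YLR296W* (1.61 and 0.048, mean 0.83) and *YER119C-A* (0.80) were all far higher on array 1 than on array 2. Their intensities ranked from 77 to 277 of 6336, and their dye terms ran from 0.52 to 0.98. The brightest probes of the array were *SOR2*, *PRM5* and *APL6*, whereas those of the abundant glycolytic transcripts *TDH3* and *ENO2* ranked 574 and 635. Brightness was therefore not read as transcript level. Whether the probe names of the deposited tables are right, for these 6 or for any other gene named here, was not tested. *YBL065W* (0.84 and 1.05, mean 0.95) and *YDR053W* (0.98 and 0.70, mean 0.84) were alike on both arrays. *YJR115W* was at 0.86 on its second probe and at 0.67 on its first. Of these 9, *YBR178W*, *YLR184W*, *YBL065W*, *YDR053W* and *YER119C-A* are not in the reference annotation used here.

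**Figure D4:**
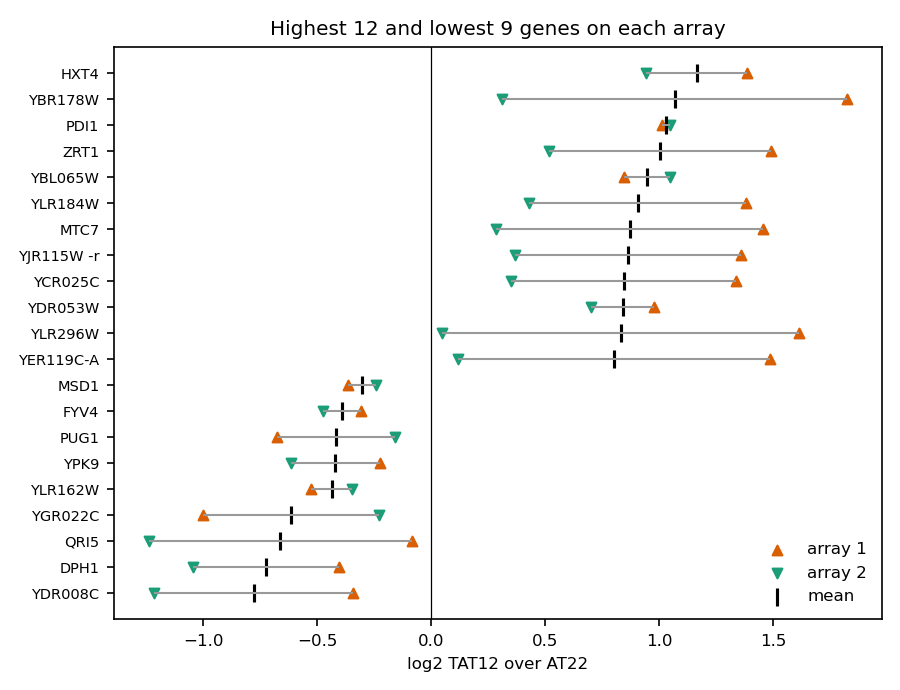
Log2 ratio of TAT12 over AT22 on array 1 (orange), array 2 (green) and as the mean of both (bar), for the 12 highest and 9 lowest genes that passed a z-score of 2 with the same sign on all spots, a signal above background and a probe of 1 gene. All values of a gene lie on the same side of 0. The arrays are close together for *PDI1* and *MSD1* and far apart for *YBR178W*, *YLR296W* and *QRI5*.

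Only 9 genes met the same conditions in the lower direction, and none of them reached 2-fold. *DPH1*, which makes diphthamide on elongation factor 2, had signals of 600 in AT22 and 527 in TAT12 on array 1, and 538 in AT22 and 304 in TAT12 on array 2. Its ratios were −0.40 and −1.04 with a mean of −0.72. *YDR008C*, an unannotated frame, was lowest at −0.78 (−0.34 and −1.22). *QRI5*, a mitochondrial inner membrane protein needed for *COX1* expression, was at −0.66, although array 1 gave −0.087 and array 2 −1.24. These 3 were lower on array 2 than on array 1, while *YGR022C* was lower on array 1 (−1.002 against −0.23, mean −0.62). *YPK9*, a vacuolar P-type ATPase linked to metal tolerance, was at −0.42, and *PUG1*, a plasma membrane heme and porphyrin transporter, also at −0.42. *MSD1*, the mitochondrial aspartyl-tRNA synthetase, was at −0.31, *FYV4* at −0.39 and *YLR162W* at −0.44. Through S288C, *PUG1* was at 0.56 and *YLR162W* at 0.18, and with the array turned at 0.071 and 0.42.

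The cytosolic ribosomal proteins were mostly above 0 by small amounts. In the large subunit, 65 of 81 probes had a ratio above 0, compared with 46.2% of all genes, and the median was 0.16. It was 0.14 on array 1 and 0.19 on array 2. In the small subunit, 49 of 56 were above 0 with a median of 0.13 (0.12 and 0.15 on the arrays). The threshold was passed by 8 large-subunit (9.88%) and 7 small-subunit probes (12.5%), all higher. Of all genes 3.38% did, and most members of both lists did not pass. *RPP1A*, a protein of the ribosomal stalk, had the largest called ratio at 0.60 (0.49 and 0.70), and its second probe was at 0.46. *RPL39* was at 0.42, *RPL35A* at 0.36, *RPS23B* at 0.39 and *RPS30B* at 0.37, none of them above background in every channel. The probes of *RPL35A* and *RPS23B* also name *RPL35B* and *RPS23A*. In the lists, 20 of the 81 and 12 of the 56 probes name several genes. The medians through S288C were 0.10 and 0.13, or 0.31 for both with the array turned, so these lists kept their side of 0. Single members depended on the direction of that array. *RPP1A* was at −0.48 through S288C and 0.073 with the array turned, and *RPL39* at −0.40 and 0.23.

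The rest of the translation apparatus gave smaller medians. Of 42 translation factors 2 passed (4.76%, near the 3.38% of all genes), *TIF1* at 0.36, the eIF4A helicase whose probe is shared with *TIF2*, and the eIF3 subunit *NIP1* at 0.28, and the median was 0.066. Of 112 ribosome biogenesis genes 5 were called higher (4.46%, also near that share), among them *GAR1* of the box H/ACA particles (0.59) and *RPF2*, which brings in the 5S particle (0.59), with a median of 0.041. The 72 mitochondrial ribosomal proteins had a median of −0.011 with 3 called (4.17%, again near that share), of which *MRPL16* rested on array 2 alone (−0.17 and 1.14). The probes of *TIF1*, *NIP1*, *RPF2* and *MRPL16* were not above background in every channel. RNA polymerase subunits gave 0 calls in 31, with *RPA34* of polymerase I at 0.73 (z-score 1.85) and *RPA14* at −0.40.

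In the list of 11 histone genes, 4 passed, all higher (36.4%, against 3.38% of all genes), and 8 had a ratio above 0. Only 6 had the same sign on both arrays and 3 were above background in every channel. The median was 0.27, with 0.26 on array 1 and 0.27 on array 2. *HTA1*, encoding H2A, had the largest ratio at 0.56 (0.75 and 0.38), with signals of 57.5 in AT22 and 145 in TAT12 on array 1 and 86.3 and 144 on array 2. *HHF2* of histone H4 was at 0.44, on a probe shared with *HHF1*, and *HHT2* of H3 at 0.32. *HHF1* rested on array 2, with −0.44 and 1.07. The linker histone *HHO1* (−0.0079), the centromeric variant *CSE4* (−0.039) and the H2A.Z gene *HTZ1* (−0.074) lay near 0. The called histone probes were dim, and none of the 4 was above background in every channel.

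**Figure D5:**
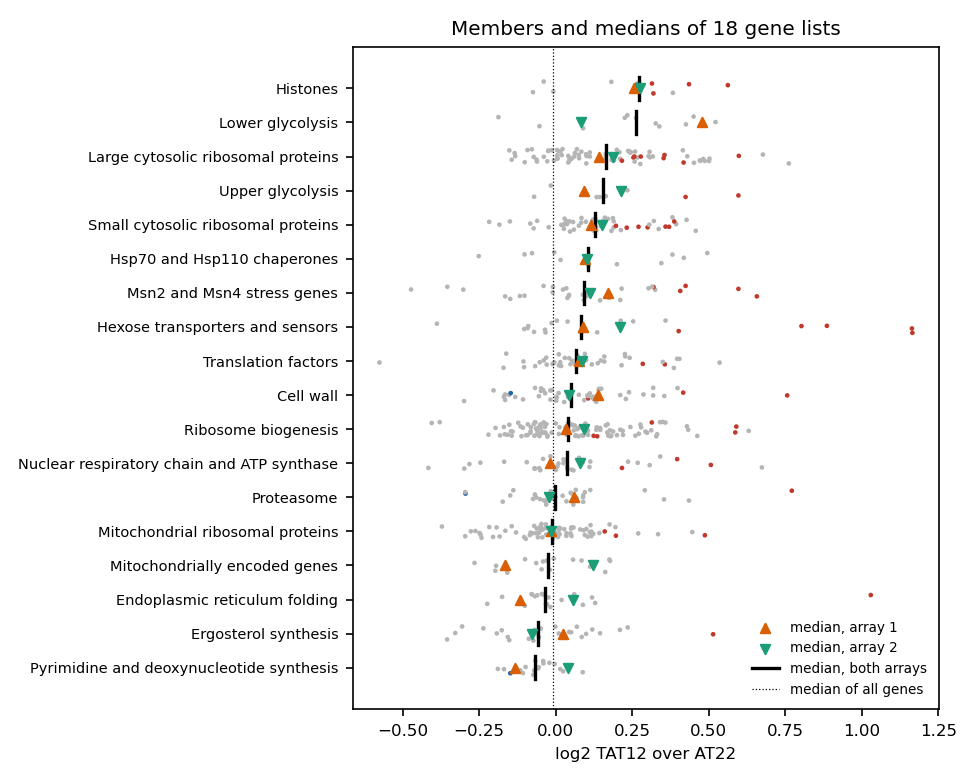
Members (points, red where called higher and blue where called lower) and medians of 18 of the 57 gene lists, as log2 TAT12 over AT22. Triangles are the median on array 1 (orange) and array 2 (green), the bar is the median of the mean ratios and the dotted line the median of all genes. Histones and both ribosomal subunits lie to the right on each array, whereas lower glycolysis does so mainly on array 1.

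In glycolysis, the calls on first probes were both in the upper pathway. *HXK1*, the hexokinase expressed when glucose is low, was at 0.60 (0.82 and 0.37), and glucokinase *GLK1* at 0.42 (0.20 and 0.64). The *GLK1* probe was not above background in every channel. *HXK2*, the main hexokinase on glucose, was at 0.14. *HXK1* and *GLK1* were the 2 called genes of 8 in the upper pathway (25.0%, against 3.38% of all genes), whose median was 0.15. In the lower pathway 0 of 11 passed on their first probes, although 9 were above 0 and the median was 0.26. It was 0.48 on array 1 and 0.083 on array 2, with *TDH3* at 0.88 and 0.021, and the probes of *TDH2* and *TDH3* and of *ENO1* and *ENO2* are shared. *TDH1* was at 0.52 (0.65 and 0.39) with a z-score of 1.93. Lists count the first probe of a gene, and the second probe of the kinase *PGK1* was called at 0.55, where its first was at 0.23. None of 11 genes from pyruvate to ethanol passed. Among them *ADH7* was lowest at −0.53.

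The genes induced under stress by Msn2 and Msn4 gave 5 higher calls in 33 (15.2%, against 3.38% of all genes), with a median of 0.091. Besides *HXK1* and *GLK1* these were *TSL1*, a subunit of the trehalose synthase (0.39 and 0.42, mean 0.41), the aldehyde dehydrogenase *ALD3* (0.32) and *HOR7* (0.66). Like that of *GLK1*, the *ALD3* probe was not above background in every channel. Others with roles in the same response were not higher on both arrays, such as *HSP12* (0.63 and −0.35), the catalase *CTT1* (0.21 and −0.13) and *DDR2* (0.51 and −0.46). Of the glycerol genes 2 passed (16.7%), *GPD1* at 0.40 and the glycerol-3-phosphate phosphatase gene *GPP2* at 0.34. The *GPD1* probe was not above background in every channel. In the glycerol list of 12, however, 7 genes were below 0 and the median was −0.055, and with loess within each print block both calls were lost (ratios of 0.31 and 0.19).

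Among the heat-shock proteins, *HSP26*, a small chaperone that binds aggregates, was at 0.50 (0.71 and 0.29) and *HSP30*, a membrane protein that restrains Pma1, at 0.48 (0.38 and 0.59). They were the 2 called genes of 11 (18.2%, against 3.38% of all genes), and neither was above background in every channel. The median of the 11 was 0.017, 4 were below 0 and 3 had the same sign on both arrays, with *HSP104* at 0.35. None of 11 Hsp70 and Hsp110 genes passed, with the highest at 0.49 for *SSA1*, whose probe also names another gene. Their median was 0.11, with 0.10 on either array. On array 1 alone 0 passed and on array 2 alone 2. Through S288C 2 passed with a median of 0.42, and with array 2 of the AT22 and S288C swap turned 3 passed with a median of 0.69. Of 13 Hsp90 genes 2 passed (15.4%), the cyclophilin *CPR6* (0.34) and the ATPase activator *AHA1* (0.18). Neither probe was above background in every channel. *HSC82* and *HSP82* were each above 0.3 without passing. The J-domain proteins gave 0 calls in 13 and the CCT chaperonin 1 in 8 (12.5%), *CCT6* at 0.18 on a probe not above background in every channel. In the endoplasmic reticulum, *PDI1* stood alone. The other 19 folding genes lay between −0.22 and 0.13, among them the chaperone *KAR2* at 0.089 and the oxidase *ERO1* at −0.046. Of 35 proteasome genes, the core subunit *PRE9* was at 0.77 (0.76 and 0.78) and the regulatory subunit *RPN3* at −0.29 (−0.55 and −0.037).

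The proton pumps showed single genes rather than whole complexes. *PMA1*, the plasma membrane ATPase, was at 0.43 (0.66 and 0.20) and at 0.52 on its second probe. Its isoform *PMA2* was at 0.23. *PMP3*, a small membrane protein, was at 0.28 on a probe not above background in every channel. In the list of 12, *PMA1*, *PMP3* and *HSP30* were the 3 calls (25.0%, against 3.38% of all genes). In the vacuolar ATPase the proteolipid *VMA3* was higher at 0.57 (0.73 and 0.41) and the V1 subunit *VMA5* lower at −0.17 (−0.12 and −0.22), in a list of 22 with a median of 0.020. The *VMA5* probe was not above background in every channel. The carboxylate transporters were not called. *ATO3* was at 0.77 on a bright probe with a z-score of 1.93, *ADY2* at −0.087, *ATO2* at −0.061 and *JEN1* at −0.13. Within the weak acid response, *YRO2*, induced by acetic acid, was at 0.31, and the pH regulator *RIM101* was called at −0.53 although array 1 gave −1.23 and array 2 gave 0.17. Neither probe was above background in every channel. Carbonic anhydrase *NCE103* was at −0.014, but its arrays had opposite signs (0.17 and −0.20) and its probe was not above background in every channel. Through S288C it was at −1.22, and with array 2 of the AT22 and S288C swap turned at −0.52.

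Further calls were scattered over metabolism and the cell surface. In the cell wall list of 51, *KRE1*, needed for β-1,6-glucan, was at 0.76 (0.92 and 0.59) and the mannoprotein *CWP2* at 0.42 on both of its probes. *TIR3* was lower at −0.15, with opposite signs on the arrays (−0.41 and 0.11) and a probe not above background in every channel. *MET6*, the methionine synthase, was at 0.52 (0.61 and 0.43), the aromatic pathway enzyme *ARO1* at 0.68 (0.71 and 0.65) and *ERG28*, a scaffold of the sterol enzymes, at 0.51. Among 38 nuclear respiratory genes 3 passed (7.89%, against 3.38% of all genes). They were *QCR8* of complex III (0.51) and the ATP synthase genes *ATP1* (0.40) and *ATP5* (0.22). Of 18 mitochondrially encoded genes 0 passed on the mean of both arrays. On array 1 alone 4 passed (273 over all genes) and on array 2 alone 5 (298 over all genes). The medians of the list were −0.17 and 0.12 on the arrays. Through S288C 4 passed with a median of 0.64, and with array 2 of the AT22 and S288C swap turned 0 passed with a median of 0.44. The probes of *ERG28*, *ATP1* and *ATP5* were not above background in every channel. Of 35 antioxidant genes 4 passed (11.4%, against 3.38% of all genes), all dim and none over 0.21 on the first probe (*PRX1*, *SOD1*, *OYE2* and *GRX2*). The second *SOD1* probe was not called (0.12), while that of the thioredoxin *TRX2* was (0.24, against −0.12 on its first). The metallothionein *CUP1-2*, on a probe that also names *CUP1-1*, was at 0.42 and the copper transporter *CTR1* at 0.16. Neither probe was above background in every channel. The phosphate (24 genes), galactose (18) and arginine (15) lists gave no call on the mean of both arrays. Array 1 alone gave 3, 1 and 3 calls in these lists, array 2 alone 1, 0 and 2, and the ratio through S288C 2, 0 and 3. Of 20 pyrimidine and deoxynucleotide genes 1 was called lower (5%, against 0.9% of all genes), the deaminase *DCD1* at −0.15. The *DCD1* probe was not above background in every channel. In this list 3 genes were above 0, compared with 46.2% of all genes, but only 5 had the same sign on both arrays. The medians were −0.13 on array 1 and 0.040 on array 2. Through S288C the median was 0.076, and with array 2 of the AT22 and S288C swap turned −0.078.

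The array carries a second probe for 86 genes. Over these pairs the ratios correlated with r = 0.76, had a median difference of 0.11 and shared their sign in 67 cases. Both probes were called in 8 genes, always in the same direction: *RPP1A*, *PMP3*, *HXT3*, *MET6*, *PMA1*, *YJR115W*, *CWP2* and *TIF1*. Whether the probes of a pair have the same sequence is not given in the sources used here. Chromosome medians over all probes ran from −0.039 on chromosome IX to 0.016 on chromosome II, although on single arrays chromosome I was at −0.15 and 0.19. Over genes above background, chromosome XI was at 0.12 (89 genes), and the others ran from −0.069 on chromosome IX to 0.023 on chromosome II.

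A limma fit over all 4 dye swaps, with 1 residual degree of freedom because S288C, AT22 and TAT12 form a closed loop, was the only test the design allowed. For TAT12 over AT22 it gave 0 genes at an adjusted p under 0.05, and the smallest adjusted p (Benjamini-Hochberg, 6336 genes) was 0.9996. At an unadjusted p under 0.05 it gave 94 genes (1.48%), 67 of them higher. With array 2 of the AT22 and S288C swap turned, 0 genes passed, the smallest adjusted p was 0.1954 and 664 genes (10.5%) were under 0.05 unadjusted. None of the differences named above therefore passed this test. Its spread is how far the swap means of the loop fail to add up, which includes the array of unsettled direction. It is not a spread between cultures, which was not measured.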

How the data were processed

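The authors deposited, for each array, unnormalized scanner intensities, with the local background, for each spot and dye, from slides printed with a yeast 50-mer oligo set. They also deposited a z-score per gene and swap (genArise, version and normalization not stated), used here only as an alternative score. Its direction was found against the scanner values (r = 0.89 with the z-scores below, 5976 genes, median −0.10), and its scale and centring stay unknown. Tables of the z-scores of single arrays were not used.

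Background was corrected by normexp (offset 50; limma 3.58.1, R 4.3.3), and log2 ratios were normalized within arrays by loess, with control spots left out. Duplicate spots were averaged, array 2 was turned, and both arrays, which are 1 replicate, were averaged. The z-score used the 100 genes nearest in intensity and the study's threshold of 2. Python 3.11.15 with numpy 2.4.6 and pandas 2.3.3 did the rest. The z-score call and the limma fit were tested on simulated data. The number of arrays limits the precision.

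Of 6336 probes, 5847 matched a gene of the reference R64 by systematic name and 275 name several genes. The files name no build, so no coordinates are given. Genes named are the 12 highest and 12 lowest called genes (9 qualified) with the same sign on all spots, above background and on a probe of 1 gene, and in each of 57 lists the called members (up to 4 a direction) or the 2 largest ratios. Others were chosen after their values were seen. Members and lists were chosen with earlier results of these data known. Lists come from general knowledge, and 9 names could not be matched.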

Additional observations from a re-analysis of the deposited data

How the results depend on the processing

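Background correction, normalization and the average of the spots changed the counts by less than 1.5 times, except that loess within each print block called 90 lower genes. Among genes above background, 93 were called (79 higher, 14 lower). A 2-fold threshold left 5 (5 higher, 0 lower), a z-score of 2.5 left 119 (104 and 15), and the SD of all genes called 96 lower. Chosen after seeing the data, the same sign on all spots with a signal above background left 70 (61 and 9). Array 1 alone called 95 higher and 178 lower genes, turning the balance. Of 91 named called genes, 89 stayed called after median centring, 36 on array 1 alone, 29 on array 2 alone, 37 by least squares over the loop, 4 through S288C and 24 there with array 2 of the AT22 and S288C swap turned. The limma count stayed at 0.

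None of the 91 changed sign under the background, normalization or median alternatives. The 38 above background keep the same ratios when other genes are left out, so their sign could not change. No sign changed among the 69 with a deposited z-score, but those scores come from the same arrays and their direction was set against these values. On array 1 alone *MRPL16* −0.17 and *HHF1* −0.44 changed sign. Array 2 alone changed the sign of *CCT6* −0.0024, *AHA1* −0.017, *DPL1* −0.12, *UTP5* −0.072, *COS12* 0.16, *RIM101* 0.17, *TIR3* 0.11 and *SOD1* −0.014. Least squares over the loop gave *CCT6* −0.070, *UTP5* −0.076, *COS12* 0.086, *SKN1* −0.085, *TIR3* 0.11, *DIP2* −0.046 and *ALP1* −0.012. Through S288C the log2 ratios that changed sign were *ATP1* −0.14, *YRO2* −0.11, *PDI1* −0.68, *TUP1* −0.26, *RPP1A* −0.48, *RPL35A* −0.23, *RSM10* −0.17, *YDR053W* −0.14, *ARO1* −0.039, *CCT6* −0.56, *PMP3* −0.21, *DPL1* −0.18, *ATP5* −0.083, *HXT3* −0.41, *UTP5* −0.50, *VMA3* −0.13, *RPN3* 0.41, *PUG1* 0.56, *ZRT1* −0.50, *COS12* 0.51, *PRE9* −0.56, *SKN1* −0.47, *CUP1-2* −0.013, *HXT4* −0.29, *DCD1* 0.13, *OYE2* −0.081, *TIR3* 0.61, *RPL39* −0.40, *SOD1* −0.10, *PRS1* −0.39, *DIP2* −0.76, *YLR162W* 0.18, *NIP1* −0.30, *ALP1* −0.66, *KRE1* −0.95, *FRE4* −0.44, *RPL25* −0.024, *RPS30B* −0.38, *CTR1* −0.052 and *RPS23B* −0.21. With array 2 of the AT22 and S288C swap turned, they were *TUP1* −0.16, *RSM10* −0.054, *CCT6* −0.078, *GRX2* −0.070, *RPN3* 0.43, *PUG1* 0.071, *COS12* 0.35, *SKN1* −0.0047, *DCD1* 0.16, *TIR3* 0.39, *VMA5* 0.14, *DIP2* −0.33, *YLR162W* 0.42, *ALP1* −0.11 and *FRE4* −0.24. The cause was not tested.

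No paired analysis was possible because the comparison is 1 dye swap. Signal over background limits 58.0% of the genes, which were not above background in all channels, and a missing call does not show equal expression.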
